A study of Homo sapiens with 4 samples.

Results

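Passage from G1 into DNA synthesis is governed by cyclin-dependent kinases (CDKs), the cyclins that switch them on and the small proteins that hold them off. Genes of this switch were followed here after knockdown of LDB1, a LIM domain-binding adaptor of haematopoietic transcription complexes. They were 5 CDK inhibitors (CDKN1A, CDKN1B, CDKN1C, CDKN2C and CDKN2D), 3 G1 cyclins (CCND2, CCND3 and CCNE1) and 2 G1 kinases (CDK4 and CDK6). All 10 were found by gene name among the 28412 genes of the deposited table. RNA-seq had been performed on total RNA of an established human leukemia line labelled NB4, a promyelocytic line. The 2 control libraries carried the vector sh-NC (genotype control), and the 2 knockdown libraries carried sh-LDB1, a vector whose shRNA is aimed at LDB1 (genotype LDB1 knockdown). The knockdown vector was lentiviral, and the study's methods describe puromycin selection of infected cells before its cell assays, without saying whether it preceded this RNA-seq. Which of the study's 3 shRNAs for human LDB1 was sequenced is not stated in the sources used here. Nothing in the labels says that replicates came from separate cultures, so p-values measure only the spread between these libraries, which may be technical.

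Levels were in FPKM, a fragment count divided by gene length and by library depth, so that levels of different genes can be set side by side. The whole reads recovered from these values summed to between 14796891 and 17200480 per library. The depths implied by the FPKM values were 16182674 and 14746656 reads for sh-NC and 16021191 and 15131588 for sh-LDB1. The recovered sums lay above these depths in sh-NC and below them in sh-LDB1, so the sums are approximate. LDB1 itself stood at 135 and 120 FPKM in sh-NC replicates 1 and 2, and at 10.2 and 9.47 FPKM in sh-LDB1 replicates 1 and 2. The knockdown thus showed in both libraries labelled with it. The cell type label was less well borne out. Of 8 promyelocytic markers, MPO and CTSG were not analysed here, and the other 6 summed to 11.7 and 10.8 FPKM with sh-NC and to 40.2 and 36.4 FPKM with sh-LDB1. Among them, ELANE, the neutrophil elastase gene, was listed at 0 in all libraries but sh-LDB1 replicate 1, where it stood at 0.182 FPKM. The other 5 stood at 1 FPKM or more in both sh-NC libraries. Of these, AZU1, PRTN3, LYZ and CSF3R were higher in both sh-LDB1 libraries than in both controls. LYZ and then CSF3R stood highest there. CEBPE was lower in both sh-LDB1 libraries, by a change that did not pass the test described below. The 11 erythroid markers, globin genes among them, summed to 3927 and 4106 FPKM with sh-NC and to 325 and 291 FPKM with sh-LDB1. The cells are therefore called cells labelled NB4. Both marker lists moved between the groups with the genes described here, and their part in the results was not tested. In bulk RNA, a change in the share of cells of one type and a change in RNA per cell cannot be told apart.

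As background, D-type cyclins (CCND1, CCND2 and CCND3) pair with CDK4 and CDK6 and start the phosphorylation of RB1, and E-type cyclins pair with CDK2 to complete it. Inhibitors of the INK4 family, here CDKN2C and CDKN2D, bind CDK4 and CDK6. Those of the Cip/Kip family, CDKN1A, CDKN1B and CDKN1C, bind a wider range of cyclin-CDK complexes, and those of CDK2 most of all. In blood cells these inhibitors are best known for the arrest that goes with terminal differentiation, and CDK6 and CCND3 for their use by haematopoietic progenitors.

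Each of the 10 genes changed between the groups, and the inhibitors parted from the cyclins and kinases in direction with a single exception. All 5 inhibitors were higher with sh-LDB1, CCND2, CCNE1, CDK4 and CDK6 were lower, and CCND3 was higher. A gene was called where limma on log2(FPKM + 1) gave a Benjamini-Hochberg adjusted p-value below 0.05 over the 13300 genes tested, and all 10 were tested and called. Calls were frequent in this comparison, with 29.9% of all genes tested called higher and 37.4% called lower. A stricter call, which also asked for a fold change above 2 or below 0.5 on that scale, was met by CDKN1A and CDKN1B (9.5% of all genes met it upwards) and by CCNE1 (10.3% met it downwards). For each of the 10 genes both libraries of one group lay above both of the other, which held for 84.6% of all genes and so says little on its own. The median log2 fold change was 0.71 for the inhibitors and -0.60 for the cyclins and kinases, beside -0.08 for all genes tested. The split of calls depends on scaling, because 55.6% of all calls were lower as deposited and 45.4% were lower with each library scaled to the same FPKM total. For the stricter call these shares were 52.0% and 38.5%, and 42.0% with median-of-ratios scaling over expressed genes. Those scalings raised the median of all genes by 0.14 and 0.10 on the log2 scale. The direction and the call of each of the 10 genes were the same under both.

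**Figure D1:**
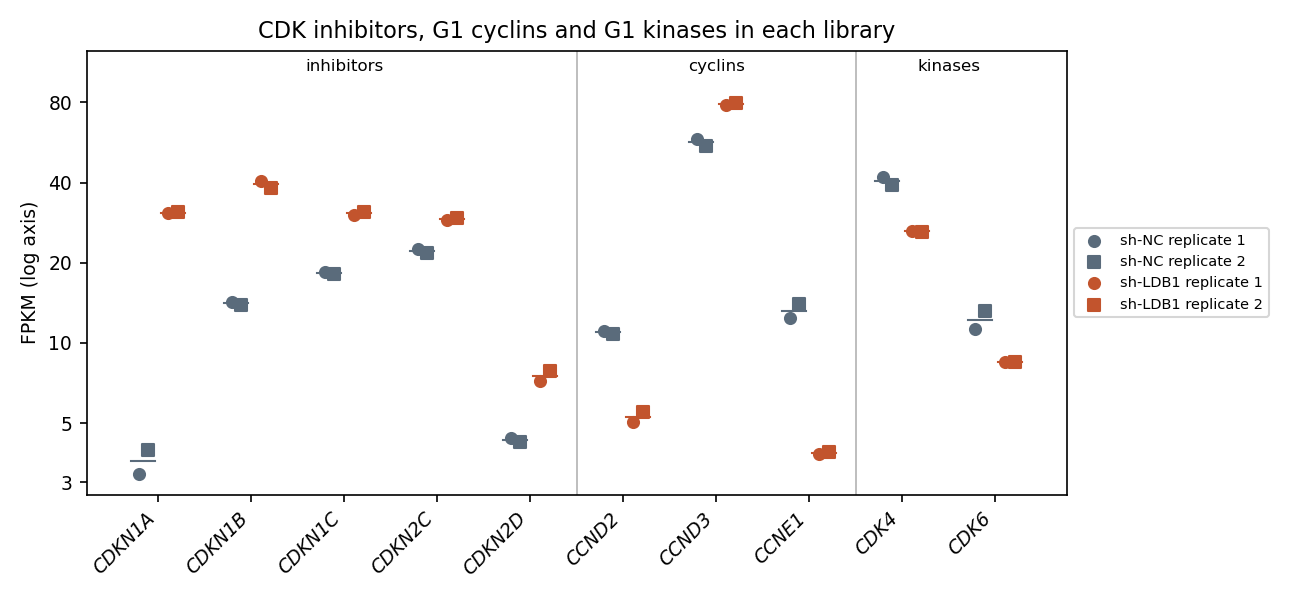
FPKM of the 10 genes on a log axis, with circles for replicate 1 and squares for replicate 2, sh-NC in grey and sh-LDB1 in orange. Short lines mark the mean of the 2 libraries, and vertical lines part inhibitors, cyclins and kinases. CDKN1A moved from between 3.22 and 3.98 to between 30.7 and 31.0 FPKM, and CCND3 was the only one of the 3 cyclins that was higher with sh-LDB1.

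To show the ground on which these transcripts start, 250 bases upstream of a RefSeq transcript start (GRCh38.p14) are printed for the inhibitor that rose most, for the cyclin that fell most and for the more abundant kinase. Sequences run 5′ to 3′ towards the start. The CCNE1 window ends directly before the GENCODE gene, and the other 2 lie within the bounds of theirs, which begin at a start further upstream. Capitals mark the GC box GGGCGG on either strand in CDKN1A (chr6:36678464-36678713, plus strand) and CCNE1 (chr19:29811741-29811990, plus strand). In CDK4 (chr12:57752311-57752560, minus strand) capitals mark the E-box CACGTG, the element bound by MYC with MAX.
CDKN1A: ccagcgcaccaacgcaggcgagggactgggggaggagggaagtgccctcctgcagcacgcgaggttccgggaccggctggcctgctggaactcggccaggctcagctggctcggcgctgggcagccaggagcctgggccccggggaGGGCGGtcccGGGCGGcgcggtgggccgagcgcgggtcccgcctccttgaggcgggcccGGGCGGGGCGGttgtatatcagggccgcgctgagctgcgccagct
CCNE1: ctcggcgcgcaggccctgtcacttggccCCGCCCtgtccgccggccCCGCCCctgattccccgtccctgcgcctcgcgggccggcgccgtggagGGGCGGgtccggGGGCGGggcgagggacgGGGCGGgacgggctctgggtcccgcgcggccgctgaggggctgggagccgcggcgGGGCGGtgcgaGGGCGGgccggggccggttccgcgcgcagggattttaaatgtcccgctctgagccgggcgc
CDK4: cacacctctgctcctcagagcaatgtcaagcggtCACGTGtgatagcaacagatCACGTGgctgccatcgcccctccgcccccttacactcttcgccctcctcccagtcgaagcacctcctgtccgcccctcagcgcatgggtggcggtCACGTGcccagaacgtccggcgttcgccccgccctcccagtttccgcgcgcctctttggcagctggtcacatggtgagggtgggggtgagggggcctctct
The CDKN1A window held 4 GC boxes, starting 104, 94, 45 and 40 bases before the start, the last 2 of which share a base. The CCNE1 window held 7, and at least 1 GC box was found in 42.6% of all 35116 RefSeq windows of this length. The CDK4 window held 3 copies of CACGTG, starting 216, 196 and 101 bases before the start, and 6.34% of all windows held this motif at least once. These counts describe letters and not binding.

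Windows were found for 8 of the 10 genes, 13 windows in all, and not for CDKN1C and CCND2. Beside CDK4, CACGTG was found only in 2 of the 3 CDKN2C windows. The E2F letters searched, TTCCCGC and TTTGGCG, were found only in a CDKN2C window, with 2 matches, and in 6.95% of all windows. A GATA site (AGATAA or AGATAG or TGATAA or TGATAG), the partner motif of LDB1 complexes in erythroid cells, was found only in the CDK4 window, where its letters start 210 bases before the start, directly after a copy of CACGTG. Of all windows, 22.3% held a GATA site. The other E-box searched, CAGNTG, was found in 42.5% of all windows and in 1 window of each of CDKN1A, CDKN2D, CCND3, CDK4 and CDK6 and in 2 windows of CDKN2C. The CDKN1B window held 1 GC box and none of the other motifs.

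All 3 inhibitors of the Cip/Kip family rose, CDKN1A with the largest log2 fold change and CDKN1C with the smallest. CDKN1A (chr6, 36676460 to 36687337, plus strand, GRCh38) encodes p21, which arrests cells in G1. Its level was 3.22 and 3.98 FPKM in sh-NC replicates 1 and 2, and 30.7 and 31.0 FPKM in sh-LDB1 replicates 1 and 2. Both sh-LDB1 libraries lay far above both sh-NC libraries. The mean rose from 3.60 ± 0.536 (SD, n = 2) to 30.9 ± 0.189 FPKM, 8.57-fold, with a log2 fold change of 2.80 (SE 0.093, adjusted p = 0.000106). Behind these values were 159 and 179 recovered reads with sh-NC and 1501 and 1430 with sh-LDB1. The log2 fold change was above that of 99.7% of the genes tested. CDKN1A thus went from the least abundant of the 10 genes to a level that overlapped that of CDKN1C.

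CDKN1B (chr12, 12685498 to 12722369, plus strand) encodes p27, which restrains cyclin E with CDK2 in resting cells. It stood at 14.2 and 13.9 FPKM with sh-NC and at 40.7 and 38.2 FPKM with sh-LDB1. The 2 libraries of each group were close to each other and the groups were well apart. The mean rose 2.80-fold from 14.1 ± 0.213 to 39.5 ± 1.73 FPKM (SD, n = 2), a log2 fold change of 1.42 (SE 0.051, adjusted p = 0.000116). CDKN1B became the most abundant inhibitor with sh-LDB1.

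CDKN1C (chr11, 2883213 to 2885775, minus strand) encodes p57, an imprinted inhibitor linked to quiescence of haematopoietic stem cells. It stood at 18.4 and 18.2 FPKM with sh-NC and at 30.4 and 30.9 FPKM with sh-LDB1. Both sh-LDB1 libraries were higher. The log2 fold change was 0.71 (SE 0.042, adjusted p = 0.000282), a 1.67-fold rise of the mean that stayed short of the stricter call.

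The INK4 inhibitors rose too, with smaller log2 fold changes than CDKN1A and CDKN1B. CDKN2C (chr1, 50960745 to 50974634, plus strand) encodes p18 and was the most abundant of the 5 inhibitors with sh-NC. It shares 617 exon bases with another GENCODE gene on the opposite strand, which was not found in the deposited table. How reads from those bases were counted is not known. The level of CDKN2C was 22.5 and 21.8 FPKM with sh-NC and 29.1 and 29.4 FPKM with sh-LDB1. The sh-LDB1 libraries were higher and the groups did not overlap. The mean rose 1.32-fold, with a log2 fold change of 0.39 (SE 0.043, adjusted p = 0.0017), the smallest change among the inhibitors. CDKN2D (chr19, 10566460 to 10569059, minus strand), which encodes p19, stood at 4.40 and 4.24 FPKM with sh-NC and at 7.23 and 7.87 FPKM with sh-LDB1. It was the least abundant inhibitor with sh-LDB1, and both libraries were again above both controls. Its mean rose 1.75-fold, with a log2 fold change of 0.68 (SE 0.068, adjusted p = 0.00119), on 107 and 94 recovered reads with sh-NC and 174 and 179 with sh-LDB1.

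The G1 cyclins went in opposite directions. CCNE1 (chr19, 29811991 to 29824312, plus strand) encodes cyclin E1, the partner of CDK2 at the G1/S boundary and a classical E2F target. It stood at 12.5 and 14.0 FPKM with sh-NC and at 3.82 and 3.89 FPKM with sh-LDB1. Both sh-LDB1 libraries lay below both controls, and they were closer to each other than the controls were. The mean fell from 13.2 ± 1.08 to 3.85 ± 0.0488 FPKM (SD, n = 2), 3.43-fold lower, with a log2 fold change of -1.55 (SE 0.074, adjusted p = 0.000178). Only 3.22% of the genes tested had a lower log2 fold change.

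CCND2 (chr12, 4269771 to 4305353, plus strand) encodes cyclin D2. It shares 999 exon bases with another GENCODE gene on the same strand, which was not found in the deposited table. How reads from those bases were counted is not known. The level of CCND2 was 11.1 and 10.8 FPKM with sh-NC and 5.03 and 5.50 FPKM with sh-LDB1. Both sh-LDB1 libraries were lower. The log2 fold change was -0.94 (SE 0.064, adjusted p = 0.000411), which fell short of the stricter call on log2(FPKM + 1), although the ratio of the means was 2.08-fold. With a pseudocount of 0.1 or 0.01, or with limma voom on the recovered reads, CCND2 met the stricter call. CCND3 (chr6, 41934934 to 42050357, minus strand) encodes cyclin D3, the D cyclin best known for its part in erythroid and lymphoid divisions. It stood at 58.5 and 54.8 FPKM with sh-NC and at 78.2 and 79.9 FPKM with sh-LDB1. It was the most abundant of the 10 genes in all 4 libraries, and the sh-LDB1 libraries were the higher ones. The mean rose 1.40-fold from 56.6 ± 2.61 to 79.0 ± 1.20 FPKM (SD, n = 2), a log2 fold change of 0.47 (SE 0.049, adjusted p = 0.00137).

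Both kinases fell, with smaller log2 fold changes than CCNE1 and CCND2. They bind the D cyclins and phosphorylate RB1. CDK4 (chr12, 57747727 to 57756013, minus strand) stood at 41.8 and 39.0 FPKM with sh-NC and at 26.4 and 26.1 FPKM with sh-LDB1. Both sh-LDB1 libraries were lower. The mean was 1.54-fold lower, with a log2 fold change of -0.60 (SE 0.051, adjusted p = 0.00074). CDK4 shares 1369 exon bases with TSPAN31, a tetraspanin gene on the opposite strand that stood at 2.39 and 2.52 FPKM with sh-NC and at 7.36 and 7.23 FPKM with sh-LDB1. TSPAN31 was thus higher where CDK4 was lower. The use of strand in counting is not stated, so reads from the shared bases cannot be told apart.

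CDK6 (chr7, 92604921 to 92836573, minus strand) stood at 11.3 and 13.2 FPKM with sh-NC and at 8.51 and 8.46 FPKM with sh-LDB1. The controls differed from each other by more than the knockdown libraries did, yet both lay above them. The mean was 1.44-fold lower, with a log2 fold change of -0.48 (SE 0.085, adjusted p = 0.00752), the least firm call among the 10 genes. Without either sh-LDB1 library in turn its adjusted p was 0.0459 and 0.048. The ratio of CDK4 to CDK6 was 3.71 and 2.96 with sh-NC and 3.10 and 3.08 with sh-LDB1, so that the knockdown libraries lay inside the range of the controls.

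**Figure D2:**
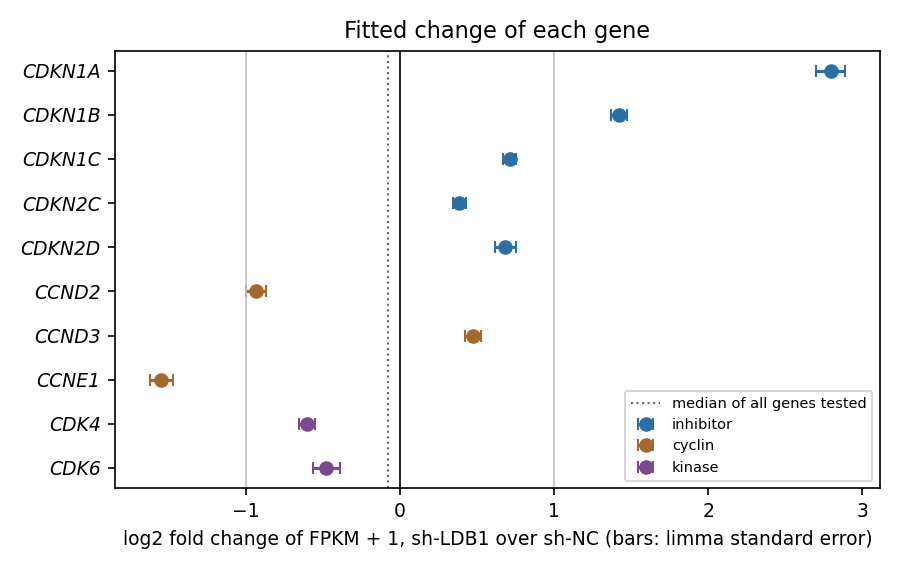
Log2 fold change of FPKM + 1, sh-LDB1 over sh-NC, for the 10 genes, with the limma standard error as bars and colours for inhibitors, cyclins and kinases. Grey lines stand at a fold change of 2 and 0.5, and the dotted line at the median of all genes tested, -0.08. The 5 inhibitors and CCND3 lie to the right of 0, from 0.39 to 2.80, and the other 4 genes to the left, down to -1.55.

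The order of the genes by level changed with the knockdown. In sh-NC the order of means was CCND3, CDK4, CDKN2C, CDKN1C, CDKN1B, CCNE1, CDK6, CCND2, CDKN2D and CDKN1A. The ranges of CDKN1B and CCNE1 overlapped there, as did those of CCNE1 and CDK6. In sh-LDB1 the order was CCND3, CDKN1B, CDKN1A, CDKN1C, CDKN2C, CDK4, CDK6, CDKN2D, CCND2 and CCNE1, and only CDKN1A and CDKN1C overlapped as neighbours. In sh-NC, CDK4 stood above each of the inhibitors, and with sh-LDB1 it stood below 4 of them.

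Summed by role as deposited, the inhibitors were higher with sh-LDB1 and the cyclins and kinases slightly lower. The 5 inhibitors together gave 62.8 and 62.1 FPKM with sh-NC and 138.0 and 137.4 FPKM with sh-LDB1, 2.20-fold higher. The 5 cyclins and kinases gave 135.2 and 131.9 FPKM with sh-NC and 121.9 and 123.8 FPKM with sh-LDB1, a ratio of means of 0.920. The rise of CCND3, the most abundant of the 5, stood against the falls of the other 4. The small fall of this sum depends on scaling. Scaling to the same FPKM total divided the sh-NC libraries by 1.06 and 1.06 and the sh-LDB1 libraries by 0.946 and 0.934. After it the sum of cyclins and kinases was not lower with sh-LDB1, and after median-of-ratios scaling the groups overlapped. The ratio of inhibitors to cyclins and kinases was 0.464 and 0.471 with sh-NC and 1.13 and 1.11 with sh-LDB1, 2.40-fold higher. The groups did not overlap. No p-value is given for these sums, since an exact two-sided permutation test of 2 against 2 libraries cannot go below 0.333. Without CCND3 the mean ratio was 0.813 with sh-NC and 3.14 with sh-LDB1, and without CDKN1B, the inhibitor with the highest mean over the 4 libraries, it was 0.362 and 0.80.

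Most of the added inhibitor transcript was of the Cip/Kip family. The 3 Cip/Kip genes summed to 35.9 and 36.1 FPKM with sh-NC and to 101.7 and 100.1 FPKM with sh-LDB1, and the 2 INK4 genes to 26.9 and 26.0 FPKM and to 36.3 and 37.3 FPKM. CDKN1A made up 5.13% and 6.40% of the summed inhibitor FPKM with sh-NC and 22.2% and 22.6% with sh-LDB1. The share of CDKN2C went the other way, from 35.8% and 35.1% to 21.1% and 21.4%, although its own level rose. INK4 FPKM over that of their targets CDK4 and CDK6 was 0.506 and 0.498 with sh-NC and 1.04 and 1.08 with sh-LDB1. Cip/Kip FPKM over that of CDK4, CDK6 and CDK2 was 0.434 and 0.437 with sh-NC and 2.19 and 2.13 with sh-LDB1. These are ratios of transcripts and not of proteins.

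**Figure D3:**
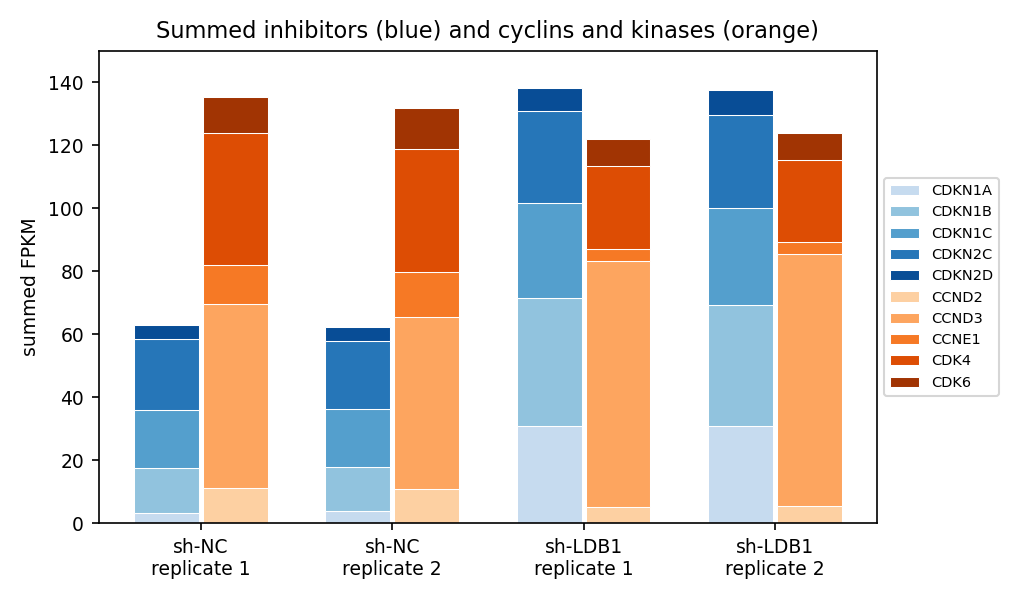
Summed FPKM as deposited in each of the 4 libraries, with the 5 inhibitors stacked in blue and the 5 cyclins and kinases in orange. The inhibitor bar stands at 62.1 to 62.8 FPKM with sh-NC and at 137.4 to 138.0 FPKM with sh-LDB1, while the orange bar stays between 121.9 and 135.2 FPKM and holds a larger share of CCND3 with sh-LDB1.

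The closest counterparts of the 10 genes were set beside them. CCND1, the remaining D cyclin, stood at 20.9 and 19.4 FPKM with sh-NC and at 6.85 and 6.43 FPKM with sh-LDB1, with a log2 fold change of -1.47 (adjusted p = 0.00015). It therefore fell together with CCND2. As deposited, the summed D cyclins overlapped between the groups all the same, at 90.5 and 85.0 FPKM with sh-NC and 90.1 and 91.8 FPKM with sh-LDB1. This overlap depends on scaling. With the same FPKM total or with median of ratios, both sh-LDB1 sums lay above both sh-NC sums. CCND3 made up 64.6% and 64.4% of the summed D cyclins with sh-NC and 86.8% and 87.0% with sh-LDB1. CCNE2, the other E cyclin, stood at 2.38 and 2.62 FPKM with sh-NC and at 0.937 and 1.22 FPKM with sh-LDB1 (log2 fold change -0.75, adjusted p = 0.00595). The E cyclins were thus lower together, with sums of 14.8 and 16.6 FPKM with sh-NC and 4.75 and 5.10 FPKM with sh-LDB1. CDK2, their kinase, stood at 29.6 and 30.4 FPKM with sh-NC and at 11.6 and 12.5 FPKM with sh-LDB1 (log2 fold change -1.25, adjusted p = 0.000154). The fall of CDK2 met the stricter call, which those of CDK4 and CDK6 did not.

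Other partners and regulators of the G1 kinases were mostly lower. Of 29 listed genes, CCND1, CCNE2 and CDK2 included, 28 were tested, 22 were called lower and 2 higher, and the median log2 fold change was -0.73. Beside them, 37.4% of all genes tested were called lower and 29.9% higher. Among the lower ones were CDC25A, the phosphatase that activates CDK2, from 25.7 and 22.7 FPKM to 4.02 and 3.66 FPKM (log2 fold change -2.38), and DTL, a substrate receptor that targets p21 for degradation in S phase, from 31.1 and 32.9 FPKM to 8.18 and 9.40 FPKM (-1.76). SKP2, the F-box protein that marks p27 for degradation, went from 17.2 and 17.9 FPKM to 4.67 and 5.48 FPKM (-1.61). The 2 genes called higher were RB1, the target of these kinases, with 8.02 and 9.02 FPKM with sh-NC and 16.3 and 15.8 FPKM with sh-LDB1 (log2 fold change 0.84), and SERTAD1, a CDK4-binding protein, with 5.53 and 4.94 FPKM and 12.8 and 13.4 FPKM (1.18). CDC37, CDK7, FBXW7 and AMBRA1 did not pass the test. CDC37, CDK7 and AMBRA1 were called higher with each library scaled to the same FPKM total, with median-of-ratios scaling and with voom on the recovered reads, which gave 5 higher calls in the list. CABLES1 was too low to be tested.

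Genes known to regulate CDKN1A and CDKN1B at the promoter showed no common direction. Of 14 listed, 12 were tested, 3 were called higher, 4 lower and 5 neither, and the median log2 fold change was -0.05. Over all genes tested, 29.9% were called higher and 37.4% lower, with a median of -0.08. The counts of this list were near those shares and so say little about its genes as a set. MYC, which represses CDKN1A together with ZBTB17, went from 159.1 and 160.9 FPKM to 27.3 and 28.1 FPKM, a log2 fold change of -2.49. Both sh-LDB1 libraries were thus far below both controls for MYC, while ZBTB17 was not called, with 10.8 and 9.64 FPKM with sh-NC and 11.2 and 12.1 FPKM with sh-LDB1. KLF6, a zinc finger activator of CDKN1A, went from 4.71 and 4.98 FPKM to 18.4 and 17.0 FPKM (log2 fold change 1.68). FOXO4 (-0.72), SMAD3 (-0.41) and TFAP4 (-0.39) were called lower, SP3 (0.21) and SMAD4 (0.26) higher, and FOXO1, FOXO3 and SP1 were not called. Only KLF6 stayed called higher without sh-NC replicate 1, without sh-LDB1 replicate 1 or without sh-LDB1 replicate 2. KLF4 and GFI1 were too low to be tested.

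The later cyclins and kinases of S phase, G2 and mitosis were lower as well. Of 12 listed genes, 10 were tested, and 9 were called lower with a median of -1.11, beside 37.4% of all genes tested called lower. CDK1, the mitotic kinase, went from 71.1 and 76.1 FPKM to 27.9 and 27.9 FPKM (log2 fold change -1.37). CDC25C, the phosphatase that activates it, had a log2 fold change of -1.42, and CCNF, the cyclin-like F-box protein, one of -1.35. The exception was CDC25B, which stood at 27.2 and 26.9 FPKM with sh-NC and at 26.5 and 27.8 FPKM with sh-LDB1 (adjusted p = 0.896) and was called higher only with each library scaled to the same FPKM total. CCNB3 was too low to be tested, and CCNA1 was not analysed here.

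A list of other cyclins and CDKs, with roles mostly but not all outside the cell cycle, did not share this direction. Of 26 listed, 25 were tested, 11 were called higher and 6 lower, and the median was 0.08. The shares over all genes tested were 29.9% higher and 37.4% lower. CDK18, CCNG2 and CDK11A, called higher, averaged under 1 FPKM with sh-NC and passed the filter on low values only through sh-LDB1. With at least 1 FPKM asked of every library, 8 of the list were called higher. CDK16 (log2 fold change 0.67), CDK5 (0.50) and CDK9 (0.41) were higher, and CCNG1 (-1.16), CCNI (-0.60) and CCNL2 (-0.27) lower. Only CCNG1 met the stricter call downwards, from 83.1 and 91.7 FPKM to 38.2 and 38.7 FPKM. CDK18 and CCNYL1 met the stricter call upwards, with 0.0995 and 0.0199 FPKM against 2.52 and 2.16 FPKM for CDK18, and 1.14 and 1.66 FPKM against 3.98 and 4.46 FPKM for CCNYL1. For CDK18, with 11 and 2 recovered reads with sh-NC, a gene let in by its sh-LDB1 level alone had to differ, and its call is no support. The values of CDK11A and CDK11B, 2 nearly identical genes both called higher, are uncertain. Without sh-LDB1 replicate 1, 6 of the list were called higher, and CDK5 and CDK9 were not among them. CDK14 was too low to be tested.

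**Figure D4:**
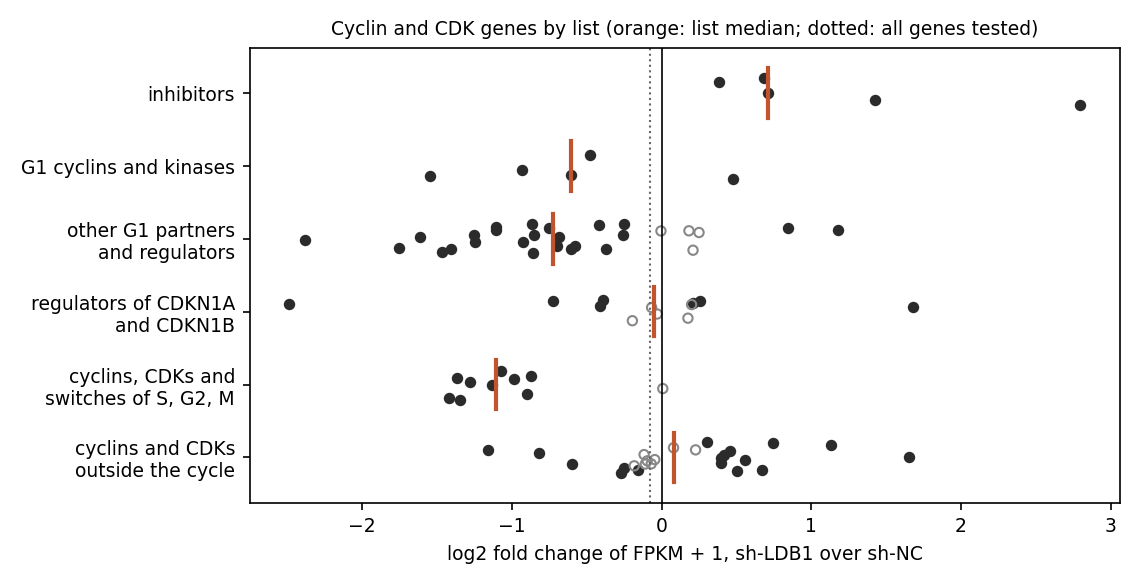
Log2 fold change of FPKM + 1, sh-LDB1 over sh-NC, of each gene tested in the 2 roles and the 4 lists, 1 row per list, with filled points for genes called at an adjusted p-value below 0.05 and open points for the others. Orange bars mark list medians, which run from 0.71 for the inhibitors to -1.11 for the cyclins, CDKs and switches of S, G2 and M.

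Finally, the genes whose levels followed those of CDKN1A and CCNE1 most closely over the 4 libraries were sought among 7506 genes that averaged 5 FPKM or more. Likeness was the Euclidean distance between log2(FPKM + 1) values centred on their mean, a measure with little power to separate genes over 4 libraries. For CDKN1A these were NES (distance 0.0997), which encodes nestin, TNFAIP2 (0.136) and TNFSF9 (0.151), which encodes the ligand of 4-1BB. NES went from 2.91 and 3.21 FPKM to 26.5 and 26.6 FPKM, and so passed the filter of 5 FPKM only through sh-LDB1. Its nearness to CDKN1A is therefore no support for a link between the 2 genes. For CCNE1 these were SAMSN1 (0.017), DLD (0.0199) and UQCRC2 (0.0234), the last 2 encoding subunits of the mitochondrial pyruvate dehydrogenase and cytochrome bc1 complexes.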

How the data were processed

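RNA-seq of 4 libraries, 2 sh-NC and 2 sh-LDB1, was analysed, with groups and replicate numbers taken from the sample titles. The authors deposited 1 table of FPKM per gene and library, and replicates were not pooled. Per the submitters' processing notes, reads were mapped with HISAT2 2.0.5 and the build was hg38. The counting tool, annotation and strand use are not given in the sources used here. Of the per-sample columns, 0 belonged to no sample.

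Genes averaging 1 FPKM or more were tested on log2(FPKM + 1), a scale that understates the change of low genes, with limma 3.58.1 in R 4.3.3 (eBayes with a trend, no block) and Benjamini-Hochberg adjustment over 13300 genes. The rest was done with pandas 2.3.3 and numpy 2.4.6 in Python 3.11.15. Because each FPKM is a whole number of reads times a constant of gene and library, whole reads were recovered for 99.31% of genes above 0 (tolerance 1e-06 of a read). They rest on gene lengths of GENCODE release 44, from which 84.8% of fitted lengths differed by at most 10%, and cover counting error only. The steps were run on simulated data with far fewer changed genes than were called here, which checks the steps and not these results. Positions are from GENCODE 44, sequences from RefSeq (GRCh38.p14).

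The named genes were LDB1, the 10 genes and CCND1, CCNE2 and CDK2. To these were added the 3 largest called changes each way averaging 5 FPKM or more in each of 4 lists, the 3 genes nearest to CDKN1A and to CCNE1, and any genes counted at 5 or fewer. TSPAN31, CDK11A and CDK11B were singled out after their values were seen. A gene of the list of CDKN1A and CDKN1B regulators is counted but not reported here by name. The genes and lists were chosen with earlier results of these data known. Alternatives covered pseudocount, filter, scaling, block, prior, left-out libraries and voom.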

Additional observations from a re-analysis of the deposited data

How the results depend on the processing

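Each of the 10 genes kept its direction and an adjusted p-value below 0.05 in all 13 alternatives. The log2 fold change ran from 2.68 to 3.11 for CDKN1A, from -1.77 to -1.40 for CCNE1 and from -0.58 to -0.32 for CDK6, whose highest adjusted p was 0.048. The cyclins and kinases lower by the stricter call numbered 2 in place of 1 at pseudocounts of 0.1 and 0.01 and with voom on the recovered reads. The inhibitor median was 0.79 and 0.80 at those pseudocounts, 0.88 with the same FPKM total in every library, 0.83 with median of ratios and 0.80 with voom, beside 0.71. The median of cyclins and kinases was -0.44 and -0.48 under those scalings, beside -0.60. The ratio of inhibitors to cyclins and kinases was 0.362 in sh-NC and 0.80 in sh-LDB1 without CDKN1B, and 0.813 and 3.14 without CCND3. Of the lists, G1 partners called higher numbered 5 under both scalings and voom. With the same FPKM total, the genes of S, G2 and M called higher numbered 1. There, genes called lower numbered 3 in the list mostly outside the cell cycle. With single libraries left out, regulators of CDKN1A and CDKN1B called higher ran from 1 to 2, and genes outside the cell cycle called higher from 6 to 11. With 1 library left in a group, its spread is assumed to be that of the other group. Why these values moved was not tested. The replicate numbers are only numbers in the labels, and deviations of same-numbered libraries correlated at 0.02 over 2 pairs. With the replicate block, 3890 genes were called higher and 4808 lower, beside 3983 and 4978, and no call of the 10 genes changed. Absolute reads rest on annotated lengths.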
